A study of Rattus norvegicus with 9 samples.

Results

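The 9 genes described here encode small leucine-rich proteoglycans of the extracellular matrix: fibromodulin (Fmod), osteoglycin (Ogn), osteomodulin (Omd), lumican (Lum), decorin (Dcn), biglycan (Bgn), the proline and arginine-rich end leucine-rich repeat protein (Prelp), asporin (Aspn) and podocan (Podn). They were taken by symbol, as every probe set (a group of short probes read as one value) whose platform annotation gives exactly 1 of these symbols. That rule found 13 of the 31099 probe sets on the array, 4 of them for Ogn, 2 for Aspn and 1 for each of the other genes. The rule itself goes by symbol, but the 9 genes were picked with earlier results of these data known, so shares among them are descriptions and not independent evidence.

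The samples were cortex from Hsd:Sprague Dawley SD rat pups killed on postnatal day 4, 1 pup from each F2b litter chosen. Rats of the parental generations ate a diet with 4-methylimidazole (4-MeI), a browning product of foods, in a breeding design that continued the exposure across generations, and the series' title adds maternal seizures to the setting. The 3 groups were control (no 4-MeI, 0 ppm in the diet), 750 ppm and 2500 ppm, with 3 arrays (Affymetrix Rat Genome 230 2.0) in each. All groups shared strain, age, tissue and breeding design. The labels used here do not give the sex of the pups, or which dams had seizures, and the part of either in the results was not tested.

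Small leucine-rich proteoglycans have a curved core of leucine-rich repeats that binds collagen fibrils and sets their diameter and spacing, and most carry sulfated sugar chains. Decorin and biglycan bear chondroitin or dermatan sulfate, whereas lumican, fibromodulin and osteomodulin can bear keratan sulfate. Several members also bind TGF-beta or BMP ligands. In brain, these transcripts are known mainly from the fibroblasts of the meninges and of vessel walls, and neurons express little of them.

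Values are log2 intensities made by the submitters with RMA (robust multi-array average), so a difference of 1 is a 2-fold difference. They carry no detection call, and differences near background are compressed. Levels of different probe sets are not comparable with each other, because probes differ in affinity. The arrays had medians of 7.67 to 7.71 and the lowest correlation between arrays of 1 group was 0.988. The highest correlation of 750 ppm replicate 3 was with an array of another group, 2500 ppm replicate 3 (0.993). Genes of cortical neurons had a mean log2 level of 11.6 to 11.8 on all 9 arrays. The number of arrays limits the precision, and p-values measure the spread between pups. In whole tissue, fewer cells of a type and less RNA per cell cannot be told apart.

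Most of the genes lie in clusters in the rat genome, build GRCr8, where all 9 symbols were matched. Prelp (chromosome 13, 47920480 to 47943547) and Fmod (48045567 to 48056184) are neighbours 102 kb apart. Dcn (chromosome 7, 34167973 to 34208004) and Lum (34245323 to 34252510) are 37.3 kb apart. Ogn (chromosome 17, 15238500 to 15259167), Omd (15266646 to 15274870) and Aspn (15286338 to 15310567) follow one another with gaps of 7.5 and 11.5 kb, inside the span of Cenpp. Bgn (chromosome X, 156348633 to 156360797) and Podn (chromosome 5, 128003907 to 128025518) stand alone. Positions are those of the genes, not of the probes.

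RefSeq promoter windows of 300 bases (250 before and 50 after the start, GRCr8) were matched for 6 of the 9 genes. Those of Fmod (chr13:48045317-48045616, plus strand), Ogn (chr17:15258946-15259245, minus strand) and Podn (chr5:128025008-128025307, minus strand) are shown 5' to 3'. Fmod was one of the genes called at 2500 ppm, Ogn had the most probe sets, and Podn did not move with the other genes. Capitals mark the motif letters searched on both strands.
Fmod: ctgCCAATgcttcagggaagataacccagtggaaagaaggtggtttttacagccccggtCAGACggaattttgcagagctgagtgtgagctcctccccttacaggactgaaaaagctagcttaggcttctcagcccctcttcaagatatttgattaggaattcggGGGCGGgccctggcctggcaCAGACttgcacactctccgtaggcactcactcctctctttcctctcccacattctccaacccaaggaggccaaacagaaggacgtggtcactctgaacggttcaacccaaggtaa
Ogn: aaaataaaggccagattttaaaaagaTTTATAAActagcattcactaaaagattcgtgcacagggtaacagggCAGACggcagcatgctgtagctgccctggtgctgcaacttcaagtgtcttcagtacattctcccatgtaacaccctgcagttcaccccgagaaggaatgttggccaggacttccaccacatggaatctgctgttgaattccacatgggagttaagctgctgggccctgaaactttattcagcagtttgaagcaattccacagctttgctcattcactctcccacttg
Podn: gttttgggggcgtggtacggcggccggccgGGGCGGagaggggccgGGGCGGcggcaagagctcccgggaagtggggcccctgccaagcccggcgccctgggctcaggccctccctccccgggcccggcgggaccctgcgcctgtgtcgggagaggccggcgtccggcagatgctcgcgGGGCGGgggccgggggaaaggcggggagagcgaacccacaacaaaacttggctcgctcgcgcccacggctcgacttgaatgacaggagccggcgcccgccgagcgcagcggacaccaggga
The Fmod window had a GC content of 52.7%, with 1 Sp1 box, 2 SMAD elements and 1 copy of the CCAAT motif. The Sp1 box was searched as GGGCGG, which 33.1% of all 33469 windows in the table held. The SMAD element was searched as CAGAC, held by 50.1% of windows. CCAAT was held by 37.5% of windows. The Ogn window had a GC content of 46.0%, with 1 SMAD element and a TATA box, the latter searched as TATAAA and held by 14.2% of windows. In Ogn the TATA box reads on both strands, and its copies overlap each other in the first run of capitals. The Podn window had a GC content of 76.3%, higher than in 97.7% of all windows, with 37 CpG dinucleotides and 3 Sp1 boxes. The AP-1 site, TGACTCA, was held by 4.6% of windows. The E-box, CACGTG, was held by 6.4%, and neither of these was in any of the 6 windows. The Lum window held 3 SMAD elements and 1 CCAAT, and those of Omd and Aspn held none of the motifs. The matches describe the letters only.

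At 2500 ppm, Fmod and Prelp rose against control. Fmod, which binds collagen and takes part in early fibril assembly, was 2.17-fold higher, and Prelp, which links collagen to basement membranes, was 1.33-fold higher. All but 1 of the other probe sets that could be tested, the one for Podn, had an unadjusted p under 0.05 and did not pass after adjustment. The test was a moderated linear model (limma) over 21729 probe sets on all 9 arrays, with Benjamini-Hochberg adjustment at 0.05. It called 2 of the 11 tested proteoglycan probe sets higher, where it called 0.281% of all probe sets higher (61 of 21729). At an unadjusted p under 0.05, 10 of 11, from 7 of the 8 tested genes, were higher, against 6.89% of all probe sets. One of the 10, Omd, passed the level filter only through its exposed arrays, and without it the count is 9 of 10. The median change of the 11 was 0.92 on the log2 scale, against 0.01 over all 21729.

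Both calls at 2500 ppm rested on several single arrays. Fmod was called in 4 of the 9 fits that left out 1 array, and its adjusted p was 0.0928 without control replicate 2 and 0.0633 without control replicate 3. It was 0.0761, 0.101 and 0.076 without 2500 ppm replicates 1, 2 and 3. Prelp was called in 3 of 9, and its adjusted p was 0.0659, 0.111 and 0.0881 without control replicates 1, 2 and 3. It was 0.121, 0.112 and 0.118 without the same replicates of 2500 ppm. Without control replicate 1, in contrast, 6 of the 11 probe sets passed: Fmod, Lum, 3 of Ogn and Omd, with adjusted p of 0.0338 for Lum and 0.0436 for Omd. That fit called 0.649% of all probe sets in either direction (141 of 21729). The number called over all probe sets also moved, from 149 in either direction with all arrays to between 9 (without 2500 ppm replicate 2) and 466 (without 750 ppm replicate 3).

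**Figure D1:**
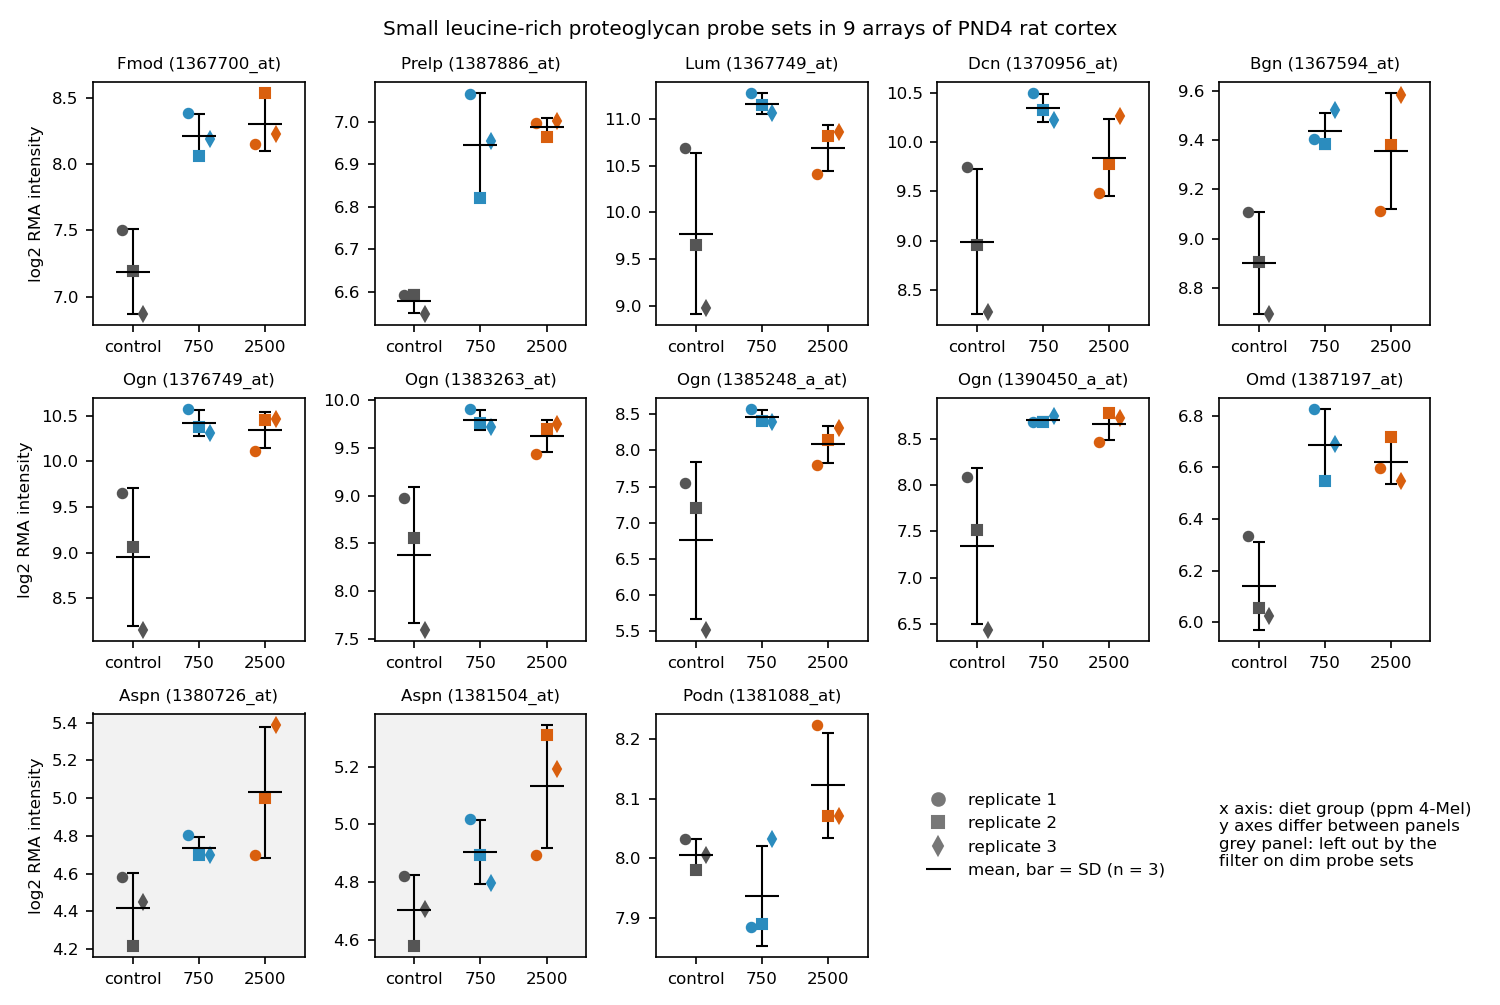
Log2 RMA intensity (y axis, a separate range in each panel) of the 13 proteoglycan probe sets by diet group (x axis, ppm 4-MeI); symbols are the 3 arrays of a group, the line is the mean and the bar the SD, and grey panels were left out by the filter on dim probe sets. Control replicate 3 is the lowest of all 9 arrays in 10 of 13 panels, and the Podn panel differs from the rest.

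Fmod (1367700_at) had log2 levels of 7.503, 7.196 and 6.866 in control replicates 1 to 3. The levels were 8.38, 8.06 and 8.19 at 750 ppm and 8.15, 8.54 and 8.22 at 2500 ppm. Every exposed array was above every control, and the exposed groups overlapped each other. The change at 2500 ppm was 1.12 ± 0.16 (SE, limma, n = 3 against 3; adjusted p = 0.0266), with an unadjusted 95% interval of 0.75 to 1.48. At 750 ppm it was 1.02 ± 0.16 (SE), a 2.03-fold difference that did not pass (limma adjusted p = 0.201).

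Prelp (1387886_at) was at 6.593, 6.591 and 6.547 in the controls. It was at 7.065, 6.820 and 6.955 at 750 ppm and at 6.998, 6.964 and 7.002 at 2500 ppm. The control and 2500 ppm arrays were each within a narrow range (SD 0.026 and 0.021), and no exposed array reached down to the controls. Prelp rose by 0.41 ± 0.068 (SE) at 2500 ppm (limma adjusted p = 0.0378; interval 0.26 to 0.56). The change at 750 ppm was 0.37 ± 0.068 (SE), with a limma adjusted p of 0.201.

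Lum (1367749_at) encodes lumican, which spaces collagen fibrils. Its levels were 10.69, 9.65 and 8.98 in control, 11.28, 11.15 and 11.06 at 750 ppm and 10.41, 10.82 and 10.86 at 2500 ppm. The controls spread over more than a log2 unit (SD 0.86), and control replicate 1 was above 2500 ppm replicate 1. The change at 2500 ppm was 0.92 ± 0.35 (SE; limma adjusted p = 0.236). At 750 ppm, where no array overlapped the controls, it was 1.39 ± 0.35 (SE; limma adjusted p = 0.226). Without control replicate 3 the change at 2500 ppm was 0.52, and without control replicate 1 it was 1.38.

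Dcn (1370956_at), for decorin, which binds collagen and TGF-beta, showed the same order. Its levels were 9.75, 8.95 and 8.28 in control, 10.50, 10.32 and 10.22 at 750 ppm and 9.49, 9.78 and 10.26 at 2500 ppm. Control replicate 1 lay above 2500 ppm replicate 1, so these groups overlapped, while the 750 ppm arrays were all above the controls. The change was 0.85 ± 0.32 (SE; limma adjusted p = 0.244) at 2500 ppm and 1.35 ± 0.32 (SE; limma adjusted p = 0.214) at 750 ppm. Without control replicate 3 the change at 2500 ppm was 0.49.

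Bgn (1367594_at) encodes biglycan, the nearest relative of decorin. Its levels were 9.11, 8.91 and 8.69 in control, 9.40, 9.39 and 9.52 at 750 ppm and 9.11, 9.38 and 9.58 at 2500 ppm. The highest control (9.1084) and the lowest 2500 ppm array (9.1114) nearly touched. The change was 0.45 ± 0.13 (SE; limma adjusted p = 0.143) at 2500 ppm and 0.53 ± 0.13 (SE; limma adjusted p = 0.221) at 750 ppm.

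Ogn, for osteoglycin, had 4 probe sets, of which 1376749_at and 1390450_a_at carry the same sequence accession and are not independent. The brightest, 1376749_at, was at 9.65, 9.06 and 8.15 in control, at 10.58, 10.38 and 10.31 at 750 ppm and at 10.12, 10.45 and 10.47 at 2500 ppm. All exposed arrays were above all controls in all 4 probe sets. The change of 1376749_at was 1.39 ± 0.30 (SE; limma adjusted p = 0.0808) at 2500 ppm and 1.47 ± 0.30 (SE; limma adjusted p = 0.201) at 750 ppm. The other probe sets had differences of 1.26 (1383263_at), 1.34 (1385248_a_at) and 1.31 (1390450_a_at) at 2500 ppm, with limma adjusted p of 0.0856, 0.18 and 0.105. At 750 ppm their differences were 1.42, 1.71 and 1.36, with limma adjusted p of 0.201, 0.23 and 0.218. The 4 probe sets thus gave like differences, and the widest control spread was that of 1385248_a_at (SD 1.09), where control replicate 3 was at 5.50.

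Omd (1387197_at), for osteomodulin, a keratan sulfate proteoglycan known from bone, was at 6.34, 6.06 and 6.03 in control. It was at 6.83, 6.55 and 6.69 at 750 ppm and at 6.60, 6.72 and 6.55 at 2500 ppm. Its mean of 6.48 was just above the level filter of 6.35 while all 3 controls were below it, so it was tested only through its exposed arrays. Exposed and control arrays did not overlap. The change was 0.48 ± 0.10 (SE; limma adjusted p = 0.0746) at 2500 ppm and 0.55 ± 0.10 (SE; limma adjusted p = 0.201) at 750 ppm.

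Both probe sets of Aspn, for asporin, a relative of decorin that binds collagen and TGF-beta, were under the level filter and were fitted without it. Probe set 1380726_at was at 4.58, 4.22 and 4.45 in control, 4.80, 4.70 and 4.70 at 750 ppm and 4.701, 4.999 and 5.389 at 2500 ppm. Probe set 1381504_at was at 4.82, 4.58 and 4.71 in control, 5.02, 4.90 and 4.80 at 750 ppm and 4.90, 5.31 and 5.19 at 2500 ppm. These are dim signals for which presence of the transcript is not shown. Without the filter, the differences at 2500 ppm were 0.61 ± 0.16 (SE; limma adjusted p = 0.117) and 0.43 ± 0.11 (SE; limma adjusted p = 0.128). At 750 ppm they were 0.32 and 0.20, with limma adjusted p of 0.586 and 0.633.

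Podn (1381088_at), for podocan, a more distant member of the family, stood apart. Its levels were 8.03, 7.98 and 8.01 in control, 7.89, 7.89 and 8.03 at 750 ppm and 8.22, 8.07 and 8.07 at 2500 ppm. The 2500 ppm arrays were above the other 6, by small amounts. The difference from control was 0.12 ± 0.067 (SE; interval -0.04 to 0.27; limma adjusted p = 0.436) at 2500 ppm and -0.07 ± 0.067 (SE; interval -0.22 to 0.08; limma adjusted p = 0.73) at 750 ppm. A change as large as that of Prelp at 2500 ppm (0.41) lay outside both intervals.

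**Figure D2:**
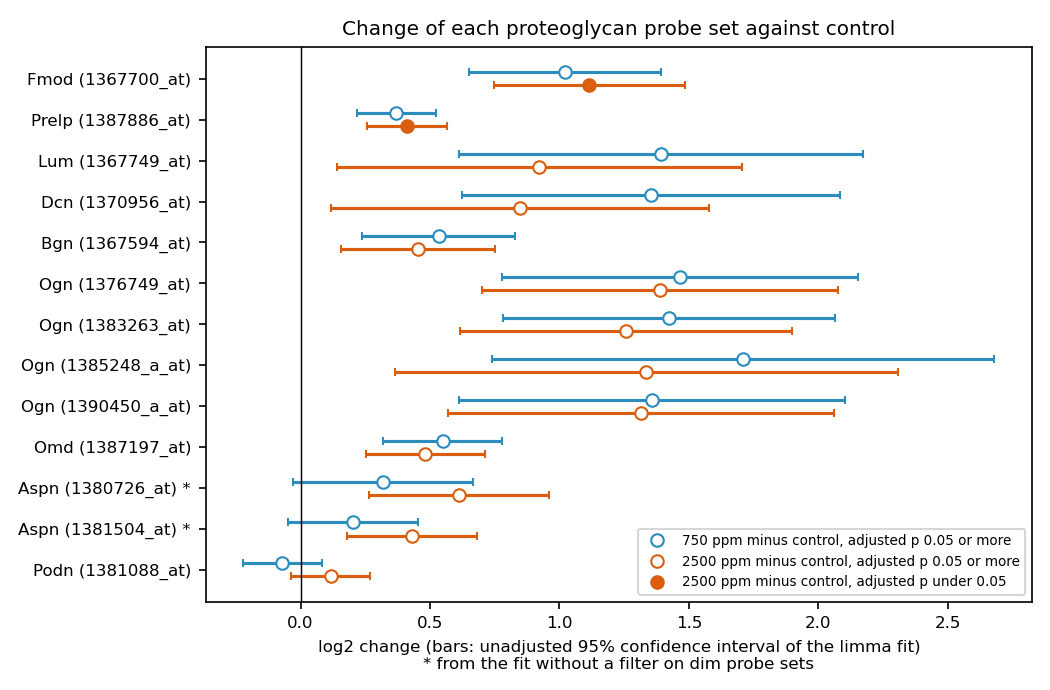
Log2 change against control (x axis) of each proteoglycan probe set at 750 ppm (blue) and 2500 ppm (orange), with unadjusted 95% intervals of the limma fit; filled points passed at an adjusted p under 0.05, and probe sets with a star were fitted without the level filter. Fmod and Prelp at 2500 ppm are the filled points, at 1.12 and 0.41, and both Podn intervals include 0.

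At 750 ppm no proteoglycan probe set passed (limma, 0 of 11), and adjusted p ran from 0.201 to 0.73. Over all probe sets 0.0092% passed (2 of 21729). At an unadjusted p under 0.05, 10 of 11 were higher, all but Podn, against 5.77% of all, and 9 of 10 without Omd. The median difference was 1.35 against 0.00 over all probe sets, and 0.78 with 1 probe set per gene. Both doses were set against the same 3 controls, so their values are not independent of each other. Without control replicate 1, limma called 5 probe sets at 750 ppm, with adjusted p of 0.0397 for Fmod, 0.031 for Lum, 0.0481 for Dcn and 0.0404 and 0.0481 for Ogn. That fit called 0.202% of all probe sets in either direction (44 of 21729). Without control replicate 3 the median difference was 0.90.

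Without any level filter, the arrays at 2500 ppm were all above the controls in 11 of the 13 probe sets, from 7 genes (not Lum or Dcn), against 9.59% of all 31042. At 750 ppm this held for 11 of 13, from 8 genes, against 6.39%. The exceptions there were Podn and Aspn 1381504_at. All 6 exposed arrays were above all 3 controls in 9 of 13, against 2.86%. These 9 were the probe sets of Fmod, Prelp, Bgn, Ogn and Omd, and Aspn 1380726_at.

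The 3 controls differed among themselves in a common order. In 10 of 13 probe sets control replicate 1 was the highest and replicate 3 the lowest control, and in 10 of 13 control replicate 3 was the lowest of all arrays. The control SD exceeded the 750 ppm SD in 11 of 13 and the 2500 ppm SD in 9 of 13. The median difference at 2500 ppm was 0.52 without control replicate 3.

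Between the doses no proteoglycan probe set passed (limma, 0 of 11; 0.322% of all passed in either direction), and Podn alone had an unadjusted p under 0.05. Its difference, 2500 ppm minus 750 ppm, was 0.19 ± 0.067 (SE; limma adjusted p = 0.313). For Fmod the difference was 0.09 (interval -0.28 to 0.46; limma adjusted p = 0.86), and for Prelp 0.04 (limma adjusted p = 0.847). Lum and Dcn were lower at the higher dose, by -0.47 (interval -1.25 to 0.31) and -0.51 (interval -1.24 to 0.23), with limma adjusted p of 0.616 and 0.558. These intervals leave room for differences in either direction. Podn was the 1 probe set with all 2500 ppm arrays above all 750 ppm arrays, against 8.35% of all 31042. Lum and Ogn 1385248_a_at were the 2 with all below, against 7.38%.

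With both doses averaged against control, no proteoglycan probe set passed (limma, 0 of 11), and 0% of all probe sets did. At an unadjusted p under 0.05, 10 of 11 were higher, against 6.43% of all, and 9 of 10 without Omd. Fmod was higher by 1.07 ± 0.14 (SE; limma adjusted p = 0.0756), and Prelp by 0.39 (limma adjusted p = 0.0808). Omd, with the same limit of the filter, was higher by 0.51 (limma adjusted p = 0.0853). Without control replicate 1, 7 of the 11 passed, Omd among them, where 0.492% of all probe sets passed in either direction. Without 750 ppm replicate 2, 3 passed (Fmod, Prelp and Omd), where 0.414% of all did.

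The genes varied together from array to array. Over the 9 arrays, the 21 pairs among the 7 tested genes other than Podn had Pearson r of 0.735 to 0.984, with a median of 0.912. After each group's mean was subtracted, so that dose played no part, the median was 0.713 and the range 0.16 to 0.972. The highest over the 9 arrays was the neighbouring pair Lum and Dcn, at 0.984 (0.954 within groups), and the highest within groups was Lum and Ogn, on different chromosomes, at 0.972 (0.954 over the arrays). Fmod had 0.967 with Omd and 0.96 with Ogn, on another chromosome. Its neighbour Prelp had 0.936 with it (0.442 within groups), and the neighbours Ogn and Omd had 0.93 (0.674 within groups). Podn had r of -0.239 to 0.188 with the other 7 genes. Its SD over the 9 arrays was only 0.10, so these r values say little about its pattern. The values within groups rest largely on the controls, whose SD exceeded that at 750 ppm in 11 of 13 probe sets and that at 2500 ppm in 9. For Lum the SD was 0.86 in control, 0.11 at 750 ppm and 0.25 at 2500 ppm. These are descriptions over arrays that share groups and tissue content.

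The genes outside the family whose profile over the 9 arrays was most like the mean of the 8 tested proteoglycan genes, of 1678 compared, were Pcolce, Slc13a4, Igf2, Ifitm2, Slc16a12, Ctsk, Lyve1 and Adgra2. Pearson r was 0.992 for Pcolce (Spearman rho 0.90), which encodes an enhancer of procollagen processing. It was 0.991 for Slc13a4 (rho 0.933), a sulfate transporter, and 0.991 for Igf2 (rho 0.933), a growth factor. For Lyve1, a hyaluronan receptor, r was 0.986 (rho 0.983), and the remaining genes had r of 0.986 to 0.989. Control replicates 2 and 3 were the arrays farthest from the median of the profile. Without them r was 0.957 for Pcolce, 0.982 for Slc13a4, 0.931 for Igf2 and 0.955 for Lyve1, and 0.907 to 0.956 for the other 4.

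Lists of genes that act with these proteoglycans were fitted in the same model, with 1 probe set per gene and p-values adjusted over all 21729 probe sets. The median gene of the 11606 tested had a difference of 0.02 at 2500 ppm. Of these genes 0.336% passed and were higher at 2500 ppm, and 0% at 750 ppm. At an unadjusted p under 0.05, 8.56% were higher and 6.27% lower at 2500 ppm, and 7.14% were higher at 750 ppm, and the counts of each list are to be read against these shares. Of 11 collagens (fibrillar, fibril-associated and collagen VI), Col5a2, which helps to start fibrils, rose at 2500 ppm by 0.61 ± 0.093 (SE; limma adjusted p = 0.0295). In all, 9 of 11 had an unadjusted p under 0.05 and a higher mean, and the list's median was 0.61. Col14a1 was higher by 1.51 (limma adjusted p = 0.0634) and Col6a1 by 0.41 (limma adjusted p = 0.0577). At 750 ppm 0 of 11 passed in limma, 10 had an unadjusted p under 0.05, and the median was 0.54.

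Of 16 tested genes for collagen processing and turnover, Mmp2, a gelatinase, rose at 2500 ppm by 0.96 ± 0.12 (SE; limma adjusted p = 0.0185), and the list's median was 0.33. Timp1, an inhibitor of such enzymes, was higher by 0.46 (limma adjusted p = 0.0592) and Pcolce by 0.62 (limma adjusted p = 0.0839). At an unadjusted p under 0.05, 8 of the 16 were higher and 0 lower. Of 16 TGF-beta and BMP genes, Tgfbi, a matrix protein induced by TGF-beta, rose by 0.93 ± 0.13 (SE; limma adjusted p = 0.0266). Tgfb3 was higher by 0.49 (limma adjusted p = 0.0622), and the list's median was 0.08. In this list 4 genes were higher and 1 was lower at an unadjusted p under 0.05, and 9 of the 16 had higher means. Col5a2, Mmp2 and Tgfbi each passed in 5 of the 9 fits that left out 1 array, with highest adjusted p of 0.108, 0.0705 and 0.0892. All 3 lost the call without control replicate 2, control replicate 3 or 2500 ppm replicate 2, and in addition Col5a2 lost it without 2500 ppm replicate 3 and Mmp2 and Tgfbi without 2500 ppm replicate 1.

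The genes for enzymes that build the sugar chains had medians near 0. Of 16 tested genes for the linker and for chondroitin or dermatan sulfate, 0 passed at 2500 ppm (limma; 2 lower at an unadjusted p under 0.05), with a median of -0.01. Those 2 were Csgalnact2 (-0.22) and Chsy3 (-0.30). Of 9 keratan sulfate genes, 0 passed (limma), with a median of 0.02, and at an unadjusted p under 0.05 there was 1 on each side. Of 7 tested receptors reported for these proteoglycans, 0 passed (limma), with a median of 0.02. Cd44, a hyaluronan receptor, was higher by 0.41 (limma adjusted p = 0.107). At an unadjusted p under 0.05, 2 of the 7 receptors were higher and 1 was lower, Lrp6 (-0.21, limma adjusted p = 0.271). At 750 ppm 0 genes of these 3 lists passed (limma), and the medians were -0.05, -0.02 and -0.17.

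Other family members and close relatives gave few values. Tsku, Chadl and Lrrc17 passed the level filter, and their differences at 2500 ppm were 0.13, 0.07 and 0.21 (limma adjusted p = 0.461, 0.85 and 0.492). Lrrc17 was higher by 0.73 at 750 ppm (limma adjusted p = 0.201). Chad (mean 5.71), Ecm2 (5.45), Optc (5.71) and Podnl1 (5.84) were under the filter and were not tested. Ecm2 lies near Aspn, with Rpl6-ps6 between them, and Optc lies beside Prelp.

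Markers of meninges and fibroblasts moved with the proteoglycan genes. The list (22 genes, 19 tested, no member of the family, Col1a1, Col1a2 and Col3a1 shared with the collagens) had a mean log2 level of 8.22 to 9.06 in control, 9.50 to 9.73 at 750 ppm and 9.18 to 9.59 at 2500 ppm. Relative to the mean over the 9 arrays it was at -0.15, -0.55 and -0.997 in control replicates 1 to 3. The mean of the 8 proteoglycan genes was at -0.12, -0.53 and -0.89 on the same arrays. The difference of the 2 means was between -0.11 and 0.11 on all 9 arrays. Both were lowest in control replicate 3 and highest in 750 ppm replicate 1.

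At 2500 ppm, 2 of the 19 marker genes rose, Slc47a1, an organic cation exporter (0.99; limma adjusted p = 0.0235), and Aldh1a2, which makes retinoic acid (0.71; limma adjusted p = 0.0185). A further 13 had an unadjusted p under 0.05, all 19 had higher means, and the median was 0.83. Slc47a1 was under the level filter of 6.35 in all 3 controls (6.33, 6.23 and 6.10), so it was tested only through its exposed arrays. At 750 ppm 0 of 19 passed (limma), 17 had an unadjusted p under 0.05, and the median was 1.02. Without control replicate 3 these medians were 0.54 and 0.78. The calls of Slc47a1 and Aldh1a2 at 2500 ppm held in 5 and 6 of the 9 fits without 1 array. Both lost it without control replicate 2, control replicate 3 or 2500 ppm replicate 2, and Slc47a1 also without 2500 ppm replicate 3, with highest adjusted p of 0.0827 and 0.0718. The part of meningeal content in the proteoglycan values was not tested.

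**Figure D3:**
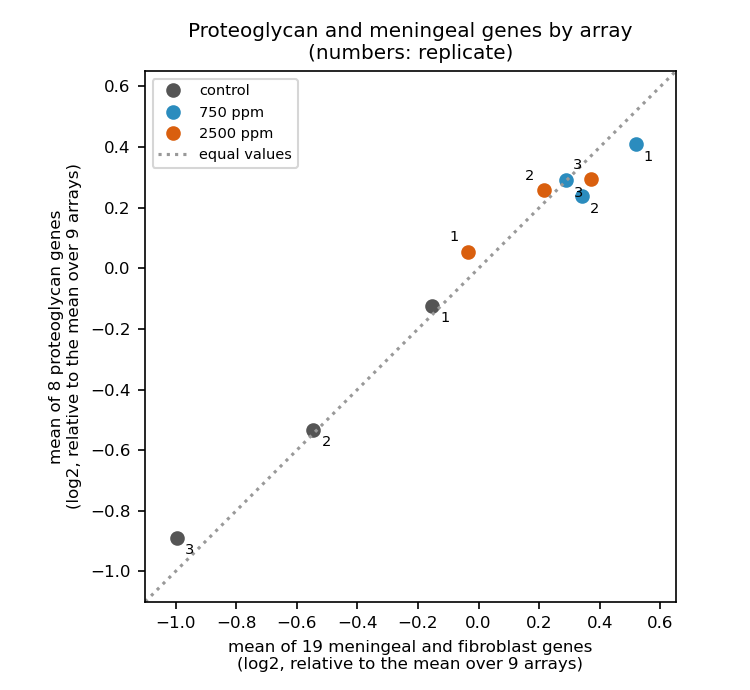
Mean log2 intensity of 8 proteoglycan genes (y axis) against that of 19 meningeal and fibroblast genes (x axis), each relative to its mean over the 9 arrays; points are arrays, numbers are replicates and the dotted line marks equal values. Control replicate 3 is lowest on both axes (-0.89 and -0.997), and all 9 arrays lie within 0.11 of the line.

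Other cell types were measured the same way. The microglia and border macrophage list (14 genes, 13 tested) was at -0.06, -0.24 and -0.42 in the controls and between 0.00 and 0.31 on the exposed arrays. At 2500 ppm 0 of 13 passed (limma), 4 were higher at an unadjusted p under 0.05, all 13 had higher means, and the median was 0.19. Its smallest p belonged to Lyve1, also a marker of border macrophages (1.28; limma adjusted p = 0.118), followed by Mrc1 (0.87; limma adjusted p = 0.162), a mannose receptor of those cells. At 750 ppm 0 passed (limma), 5 were higher at an unadjusted p under 0.05, and the median was 0.30.

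The endothelial list (13 genes) was at -0.07, -0.19 and -0.50 in the controls and between 0.04 and 0.21 on the exposed arrays. Its median difference at 2500 ppm was 0.36, and 0 of 13 passed (limma; 10 higher at an unadjusted p under 0.05), with Emcn higher by 0.84 (limma adjusted p = 0.0933). The pericyte and smooth muscle list (12 genes) had a median of 0.14, with 0 passing (limma; 2 higher at an unadjusted p under 0.05), and Anpep was higher by 0.40 (limma adjusted p = 0.0643). The astrocyte list (9 genes) had a median of 0.00, with 0 passing (limma; 1 higher at an unadjusted p under 0.05), which was Gfap (0.66; limma adjusted p = 0.187). The blood list (4 genes) was at -0.47 to -0.22 in control and -0.08 to 0.31 on the exposed arrays, and Alas2 and Slc4a1 passed at 2500 ppm (0.70 and 0.61; limma adjusted p = 0.0381 for both), in 3 of the 9 fits without 1 array, those without a 750 ppm array.

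The choroid plexus list (8 genes) and the striatal list (13 genes) followed another order than the proteoglycan genes. The first was at 1.39, 1.27 and 0.26 at 2500 ppm and at -0.71 to -0.25 on the other 6 arrays. Its gene Sostdc1 was under the level filter of 6.35 in all 3 controls, and Folr1 on all control and 750 ppm arrays. Both were in the list only through exposed arrays, Folr1 only through those at 2500 ppm. Ttr, the transthyretin gene, rose by 5.67 at 2500 ppm (limma adjusted p = 0.0135), in all fits without 1 array but those without control replicate 2 or 2500 ppm replicate 2 (highest adjusted p 0.0648). The striatal list was at -0.75 in 750 ppm replicate 3, at -0.77, -0.02 and -0.47 at 2500 ppm and at 0.21 to 0.60 on the other arrays. Tac1, a tachykinin precursor, fell by 1.10 at 2500 ppm (limma adjusted p = 0.0185), but not without control replicate 2 or 2500 ppm replicates 1 or 2 (highest adjusted p 0.0747). The bone and cartilage list (5 of 12 genes tested) had a median difference of 0.16 at 2500 ppm. Acan had the smallest p (0.16, limma adjusted p = 0.293). Means were higher for 4 of the 5 genes, and the cartilage collagen Col2a1 was lower (-0.22, limma adjusted p = 0.367). The cortical neuron list (11 genes) had a median of 0.04, with 0 passing (limma). At an unadjusted p under 0.05, Emx1 was higher by 0.58 (limma adjusted p = 0.0573) and Bcl11b was lower (-0.60, limma adjusted p = 0.17). The part of these contents in the proteoglycan values was not tested.

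**Figure D4:**
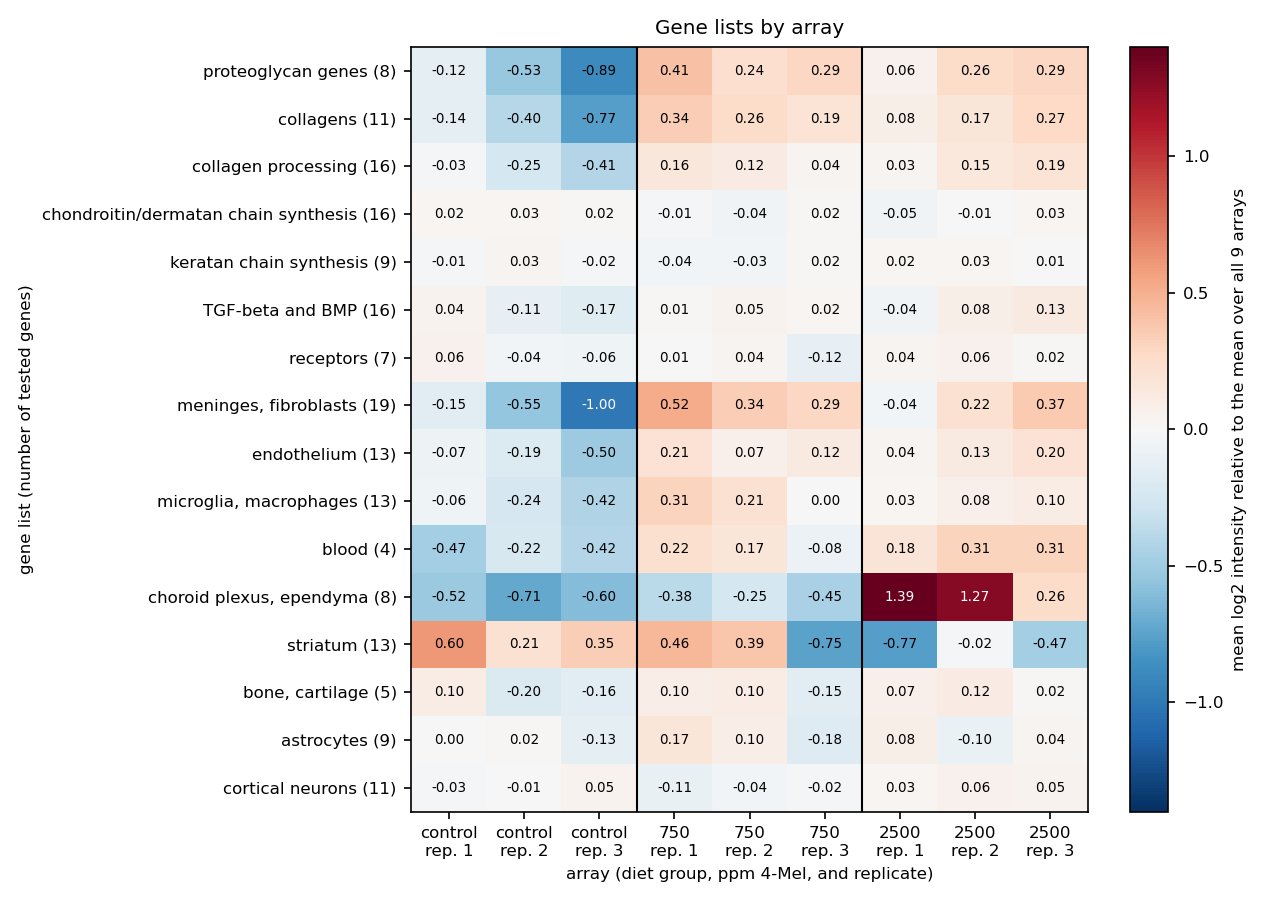
Mean log2 intensity of each gene list (rows, number of tested genes in brackets) on each array (columns), relative to the list's mean over the 9 arrays; red is higher and blue lower. The proteoglycan, collagen and meningeal rows share the low value of control replicate 3 (-0.89, -0.77 and -0.997), the rows for sugar chain synthesis stay near 0, and the choroid plexus row is highest in 2500 ppm replicates 1 and 2.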

How the data were processed

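RNA from postnatal day 4 rat cortex was labelled from 100 ng with 16 h of in vitro transcription, per the labels' protocols. The authors deposited log2 intensities, made with affy and RMA per the submitters' processing notes; no versions are named. RMA includes quantile normalization, which hides changes common to all transcripts.

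The 57 AFFX controls and the 30% of probe sets with the lowest mean (9313, under 6.35) were left out, and 21729 were fitted with 1 mean per group in limma 3.58.1 (R 4.3.3), with empirical Bayes variances (prior degrees of freedom 3.25). The 4 contrasts were adjusted by Benjamini-Hochberg, two-sided. The fit was tested on simulated data. Symbols came from the platform annotation: 20826 probe sets had 1, 436 several and 9780 none. Sequences and positions are RefSeq's (GRCr8).

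All 13 proteoglycan probe sets are described; from each list, up to 4 genes with the smallest p at 2500 ppm could be named. Likeness was Pearson r among genes with an SD of at least 0.2. The members and lists were chosen with earlier results of these data known. Alternatives tried were other filters, scalings, variance models, array weights, a replicate block, gene-level values, a threshold of 0.1 and leaving out arrays.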

Additional observations from a re-analysis of the deposited data

How the results depend on the processing

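The count of proteoglycan probe sets called at 2500 ppm was 2 with all arrays, where 0.686% of all passed in either direction. It was 1 with the lowest 50% of probe sets left out (0.702% of the rest passed) and 1 with a replicate block (0.561% of all). Prelp, at percentile 37.7 of the mean levels, was under the 50% filter and was not tested there. With the mean of a gene's probe sets the count was 1 (0.784% of 9952 genes). With array weights it was 4, where 1495 of all 21729 passed (6.88%). At an adjusted p under 0.1 it was 5, and the share of all probe sets there was not counted. The count ran from 0 to 6 when 1 array was left out. At 750 ppm (0) it was 3 with array weights (340 of all 21729 probe sets, 1.56%) and 0 to 5 without 1 array. For both doses averaged (0) it was 7 with array weights (1106 of all, 5.09%) and 1 with the mean of a gene's probe sets (0.111% of genes). It was 5 at an adjusted p under 0.1, again with no share counted, and 0 to 7 without 1 array. The median change at 2500 ppm (0.92) was 0.40 with array weights, 0.66 with 1 probe set per gene, 0.52 without control replicate 3 and 750 ppm replicate 3 together, and 0.52 to 1.27 without 1 array. At 750 ppm (1.35) it was 0.74 with array weights, 0.78 with 1 probe set per gene, 0.88 without those 2 arrays and 0.90 to 1.73 without 1. For both doses averaged (1.10) it was 0.53 with array weights. The causes of the other shifts were not tested.

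Of 595 values of single probe sets under 20 other settings, 558 kept their direction and side of the threshold, 13 lost a call, 24 gained one and 0 reversed. Probe sets of all genes called at 2500 ppm numbered 149, against 1495 with array weights, 481 with only the groups compared, 263 without those 2 arrays, and 9 to 466 without 1 array. Same-numbered arrays had deviations from their group means correlated at -0.21 to 0.31, so the numbers were not taken to pair the arrays; with the replicate block Fmod had a limma adjusted p of 0.0452 and Prelp 0.0598. With 3 arrays per group and signals near background for Aspn, small differences could not be resolved.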
